A study of Mus musculus with 4 samples.

Results

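The genes described here encode proteins of the splicing machinery: the Sm, U1 and U2 particle proteins, the SF3a and SF3b complexes, the SR proteins and the hnRNPs. Members were taken by name. They are the probe sets whose only gene symbol in the platform annotation begins with Snrp, Srsf and a digit, Hnrnp, Sf3a or Sf3b. The rule uses no measured value, but these genes were chosen with earlier results of these data known. The rule gave 139 probe sets for 47 genes, of 18193 genes with a probe set of their own on the array. Of the 47 genes, 46 were tested, of 12589 tested in all. Srsf12 was not tested because its mean log2 value, 4.53, lay under the filter at 5.08. Another 16 probe sets carried a member symbol beside a second symbol and were not named, and 4 genes (Snrpa, Snrpd1, Snrpd2 and Hnrnpa3) were read only in that way. Srsf7 was not analysed here.

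Messenger RNA was read on 4 Affymetrix mouse genome arrays, 2 of control bronchoalveolar stem cells (BASCs) and 2 of c-Myc depleted BASCs. All came from ICR mice of 4 to 6 weeks, by sorting lung cells for CD34 and Sca-1 and against CD31 and CD45. The sorted cells were plated on a feeder layer of irradiated embryonic fibroblasts. On how they were passaged afterwards the paper differs within itself: its methods name the feeder layer again, its results collagen-coated dishes. Which of these the array cells came from is not stated. The depleted cells were stable lines, kept in puromycin for several generations after a lentivirus had delivered an RNA hairpin that targets c-Myc. The paper worked with 2 such hairpins, and which of them each depleted array stands for is not stated. The depleted arrays may therefore differ in hairpin or in line. The paper calls the array controls wild type, and whether they carried any virus or met puromycin is not stated for the arrays, so depletion, infection and selection cannot be told apart. Nor do the sources tie the arrays of a group to separate cultures, so a p-value here measures the spread between arrays, which may be technical. Differences are Myc-depleted minus control on the log2 scale. In bulk RNA, fewer cells of a type and less RNA per cell cannot be told apart.

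Introns are removed by the spliceosome, which is assembled from small nuclear ribonucleoproteins (snRNPs): the Sm proteins form a ring on the small nuclear RNAs, U1 marks the start of an intron, and U2, with SF3a and SF3b, holds the branch point. SR proteins bind exons and mostly promote splicing, and hnRNPs coat nascent RNA and often oppose them, so the balance between these families sets many alternative exons. Myc works as a dimer with Max, the E-box is the DNA element that this dimer recognises, and genes of the splicing machinery are among its known targets.

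Myc itself, read by 1 probe set, was at 9.21 and 9.69 on the control arrays and at 8.35 and 8.50 on the Myc-depleted arrays, a difference of -1.02. Both arrays labelled Myc-depleted were thus lower than both control arrays (adjusted p = 0.362 in limma, which did not pass the threshold of 0.05). The labelled cell type was checked against marker genes. Of 10 lung epithelial markers, 3 (Aqp5, Epcam and Sftpb) lay over the filter, while Sftpc and Scgb1a1, which define alveolar type II and club cells, lay under it. These are RNA levels. By immunostaining, the paper reports the proteins of Sftpc and Scgb1a1 in most colonies, also after many passages. It also states that array RNA of SP-C, CCA and Aquaporin did not change with depletion. Of the 4 genes used for the sort, 3 had a probe set of their own (Cd34, Pecam1 and Ptprc) and 0 lay over the filter. Cd34, for which the cells had been sorted, thus read near background on these arrays. Pecam1 and Ptprc encode CD31 and CD45, against which the cells had been sorted. Sca-1, the other marker sorted for, was not read by a probe set of its own. Of 12 fibroblast and feeder markers, 11 lay over the filter. The mean level of the fibroblast list was 10.9 and 11.1 on the control arrays and 11.1 and 10.8 on the Myc-depleted arrays, so the groups overlapped. Single markers did not overlap and went both ways within that mean: Pdgfra differed by 1.23 (adjusted p = 0.282 in limma), with its 3 probe sets between 1.01 and 1.23, Dcn by 0.67 (adjusted p = 0.332) and Thy1 by -1.26 (adjusted p = 0.263). Dcn and Thy1 had low means, 5.72 and 5.34, near the filter. Thy1 was at 4.68 and 4.75 on the Myc-depleted arrays, under the filter value. The other probe set of Dcn lay under the filter and differed by -0.023. The mean level of the epithelial list was 4.95 and 4.86 on the control arrays and 4.99 and 5.03 on the Myc-depleted arrays. In it, Epcam differed by 0.65 (adjusted p = 0.40 in limma). That value came from the probe set by which Epcam lay over the filter. Its other probe set, at a mean of 4.54, lay under the filter and differed by -0.13. The mean level of the sort list lay between 4.04 and 4.15. The part of other cell types in the differences given here was not tested.

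Most genes of the splicing machinery were slightly lower in c-Myc depleted BASCs, and no single one passed the adjusted threshold. Of 46 members, 39 were lower and 7 higher, which is 84.8% lower, whereas 46.0% of all genes tested were lower. The median difference was -0.13 (quartiles -0.22 and -0.058), or 91.3% of the control level, against 0.022 over all genes. The differences ran from -0.46 (Srsf10) to 0.67 (Hnrnph3). Most members had high values, so the same count was taken over the 1874 genes at or above the lower quartile of the members' levels (log2 10.4). Of those, 52.8% were lower, with a median of -0.015. That comparison sets levels of different probe sets beside a common value and is a rough guide only.

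The members' median had the same sign in all 4 pairings of 1 depleted array against 1 control array. It was -0.13 for Myc-depleted 1 minus control 1, -0.13 for Myc-depleted 2 minus control 1, -0.14 for Myc-depleted 1 minus control 2 and -0.094 for Myc-depleted 2 minus control 2. Over all genes these medians lay between 0.017 and 0.029. With any 1 array left out, between 35 and 38 members were lower; the number higher went from 7 to 11 without Myc-depleted 1. On both Myc-depleted arrays 22 of the 46 genes (47.8%) were under both control arrays, where 20.8% of all genes tested were. In the other direction it was 3 (6.52%), namely Hnrnph3, Hnrnpk and Sf3b5, against 26.6%, and 21 genes overlapped.

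Few members stood apart from the array spread when taken singly. An unadjusted limma p under 0.05 was reached by 2 lower genes, Hnrnpu and Hnrnpul2, and by 1 higher gene, Hnrnph3. Of all genes tested, 5.23% were lower and 6.96% higher at that level, so the members' counts were no larger than the background. Without control 1, or without control 2, this count was 0, where the share over all genes was 3.35% and 4.34%. After adjustment 0 members and 0.00% of all genes passed (adjusted limma p of members 0.457 to 0.974), and 0 members differed over 2-fold, against 1.79% of all genes.

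**Figure D1:**
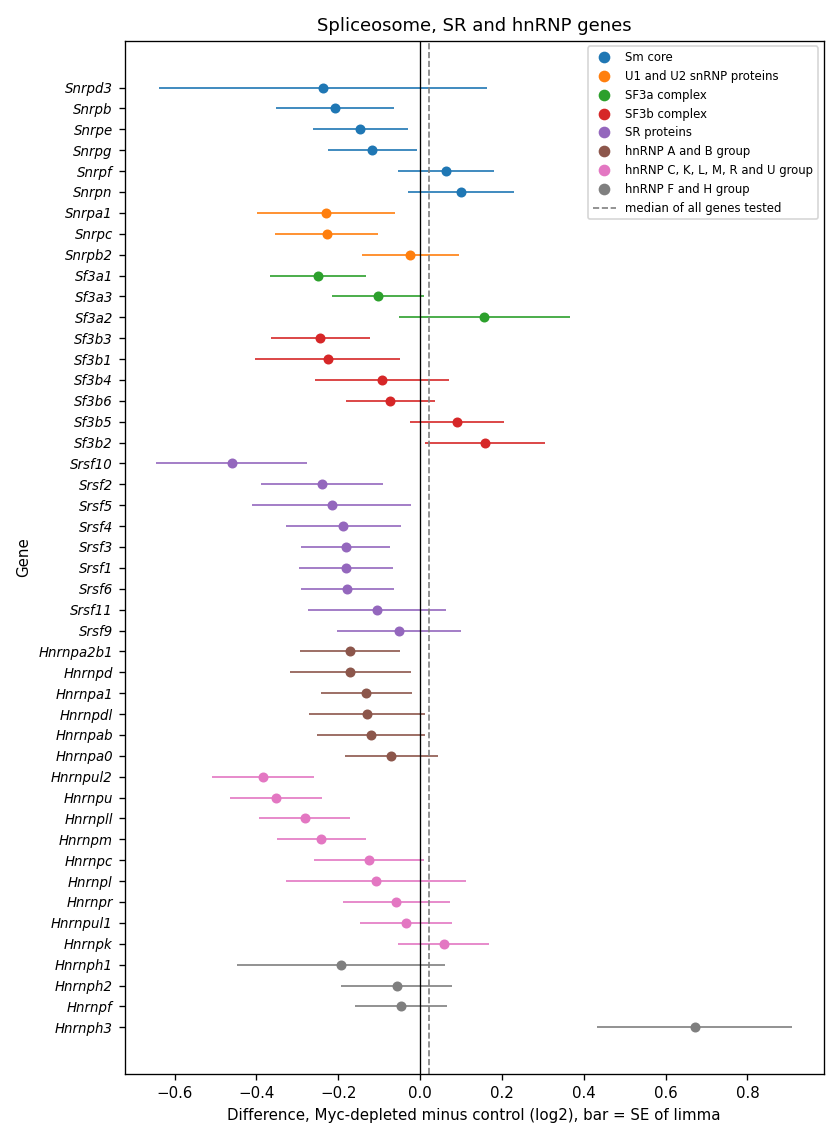
Difference between Myc-depleted and control arrays (log2, horizontal axis) for each of the 46 genes tested, coloured by family; points are differences of the means of 2 arrays and bars are limma standard errors. Of the points, 39 lie left of 0, between -0.46 and -0.024, 6 lie right of it between 0.058 and 0.16, and Hnrnph3 lies farthest right at 0.67; the dashed line marks the median of all genes tested, 0.022.

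The start sites of the members were read for CACGTG, the canonical E-box, which reads the same on both strands. Promoter windows of RefSeq (assembly GRCm38.p6), from 250 bases before to 50 after a start, were available for 41 of the 46 genes tested, in 57 windows. The motif was found in 4 of the 41 genes (9.76%), all of them hnRNP genes, compared with 11.5% of 10187 genes tested on the array that had a window and 8.09% of 27025 genes of the whole promoter table. The 4 windows are shown from 100 bases before to 25 after the start, with the motif in capitals. The motif begins 14 bases after the start in Hnrnpm, 32 before it in Hnrnpd, 16 after it in Hnrnph2 and 79 before it in Hnrnpf.
Hnrnpm, chr17:33685434-33685558, minus strand: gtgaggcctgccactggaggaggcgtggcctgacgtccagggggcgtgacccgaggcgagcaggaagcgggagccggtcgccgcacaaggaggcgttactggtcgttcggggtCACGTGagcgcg
Hnrnpd, chr5:99978914-99979038, minus strand: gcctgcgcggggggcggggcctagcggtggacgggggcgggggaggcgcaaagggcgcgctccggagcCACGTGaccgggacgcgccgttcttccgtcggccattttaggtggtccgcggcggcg
Hnrnph2, chrX:134601079-134601203, plus strand: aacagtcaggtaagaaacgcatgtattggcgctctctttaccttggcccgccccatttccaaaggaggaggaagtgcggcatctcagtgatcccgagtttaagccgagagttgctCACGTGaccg
Hnrnpf, chr6:117907704-117907828, plus strand: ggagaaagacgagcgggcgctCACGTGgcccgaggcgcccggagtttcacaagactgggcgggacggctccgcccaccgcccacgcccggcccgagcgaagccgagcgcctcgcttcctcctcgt
These 4 genes differed by -0.24, -0.17, -0.058 and -0.046, with a median of -0.11, and the 37 genes without the motif had a median of -0.13, 31 of them being lower. The presence of these letters thus did not go with a larger difference among the members searched.

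Hnrnpul2, Hnrnpll, Sf3b4, Sf3b5 and Snrpb were not searched. For comparison, the same stretch, in which the motif was not found, is given for Hnrnpu, the lower gene with the smallest p, for Srsf10, the gene with the lowest difference, and for Hnrnph3, the gene with the highest.
Hnrnpu, chr1:178337791-178337915, minus strand: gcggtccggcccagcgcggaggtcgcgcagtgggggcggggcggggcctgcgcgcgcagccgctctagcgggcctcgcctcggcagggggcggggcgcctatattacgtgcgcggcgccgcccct
Srsf10, chr4:135855971-135856095, plus strand: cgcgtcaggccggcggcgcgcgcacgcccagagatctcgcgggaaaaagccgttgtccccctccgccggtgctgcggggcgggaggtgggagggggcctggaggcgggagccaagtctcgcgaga
Hnrnph3, chr10:63023825-63023949, minus strand: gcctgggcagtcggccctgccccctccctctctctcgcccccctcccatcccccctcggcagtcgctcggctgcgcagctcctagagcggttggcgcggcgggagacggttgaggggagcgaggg
A match or its absence describes the letters of the window and not the binding of a factor.

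Among the Sm proteins, which form the ring common to the spliceosomal snRNPs, 4 of 6 genes were lower (median -0.13), and 3 of these did not overlap between groups, against 20.8% of all genes tested. Snrpb, which encodes SmB, was at 12.00 and 11.81 on the control arrays and at 11.60 and 11.79 on the Myc-depleted arrays (difference -0.21, SE 0.14). The groups were separated by little, since Myc-depleted 2 lay just under control 2. Snrpe was at 12.36 and 12.45 on the control arrays and at 12.29 and 12.23 on the Myc-depleted arrays (-0.15, SE 0.12). Snrpg was at 13.14 and 13.13 on the control arrays and at 13.03 and 13.01 on the Myc-depleted arrays (-0.12, SE 0.11). Snrpe and Snrpg, which encode SmE and SmG, were thus lower on both arrays by about the same amount as the median member. Snrpd3, which encodes SmD3, had values of 11.01, 10.60, 10.06 and 11.08 on control 1, control 2, Myc-depleted 1 and Myc-depleted 2. Its difference of -0.24 (SE 0.40) came from Myc-depleted 1 alone and was 0.27 without that array. Snrpf differed by 0.064 and Snrpn, the imprinted paralog of Snrpb that is best known from neurons, by 0.10. The Sm median was -0.018 without Myc-depleted 1 and -0.041 with the mean of all probe sets of a gene, so its size rested on 1 array and on the probe set chosen.

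The proteins particular to U1 and U2 were lower in 3 of 3 genes, with a median of -0.23. Snrpc, the C protein of U1 that helps it pair with the start of an intron, was at 10.94 and 10.84 on the control arrays and at 10.58 and 10.73 on the Myc-depleted arrays (-0.23, SE 0.13, adjusted p = 0.631 in limma). Snrpa1 and Snrpb2 encode a pair of proteins that bind U2 RNA together. Snrpa1 was at 10.96 and 10.86 on the control arrays and at 10.50 and 10.86 on the Myc-depleted arrays (-0.23, SE 0.17). In this probe set the lower mean came almost wholly from Myc-depleted 1, because Myc-depleted 2 and control 2 were level. The other probe sets of Snrpa1 differed by -0.29 and -0.21. In the probe set at -0.29, Myc-depleted 2 (10.06) also lay under both control arrays (10.25 and 10.31). Snrpb2 was at 10.63 and 10.55 on the control arrays and at 10.51 and 10.62 on the Myc-depleted arrays (-0.024). Without Myc-depleted 1 the median of the 3 genes was -0.051.

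SF3a and SF3b, the U2 complexes at the branch point, were mixed. Of the 3 SF3a genes, 2 were lower, with a median of -0.10, and that median became 0.11 when all probe sets of a gene were averaged. Sf3a1 was at 9.09 and 9.18 on the control arrays and at 8.84 and 8.93 on the Myc-depleted arrays (-0.25, SE 0.12). Its other tested probe sets went the other way, by 0.34 and 0.23, so the gene had no single direction. Sf3a3 differed by -0.10 (SE 0.11). Sf3a2 differed by 0.16 (SE 0.21), a value that became -0.075 without Myc-depleted 2.

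Of the 6 SF3b genes, 4 were lower, with a median of -0.083. Sf3b3, a scaffold subunit, was at 10.62 and 10.71 on the control arrays and at 10.48 and 10.36 on the Myc-depleted arrays (-0.24, SE 0.12), and its second probe set differed by -0.34. Sf3b1, the large subunit that clamps the branch point, was at 12.03 and 12.18 on the control arrays and at 12.07 and 11.70 on the Myc-depleted arrays (-0.23, SE 0.18). In this probe set the groups overlapped, since only Myc-depleted 2 was low. The other tested probe sets of Sf3b1 differed by -0.092, -0.41 and 0.125. In the probe set at -0.41, Myc-depleted 1 (10.47) was the lowest array. Sf3b2 was at 11.24 and 11.07 on the control arrays and at 11.21 and 11.43 on the Myc-depleted arrays (0.16, SE 0.15). Sf3b4 and Sf3b6 differed by -0.093 and -0.073, and Sf3b5 by 0.090. The SF3b median was -0.00055 without Myc-depleted 1 and 0.031 with the dimmest probe set of each gene.

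With the brightest probe set of each gene, all 9 SR genes tested were lower, with a median of -0.18, quartiles of -0.22 and -0.18, and a range from -0.46 to -0.052. The family median lay between -0.20 and -0.18 in each of the 4 pairings of arrays, and 6 of the 9 genes did not overlap between groups, against 20.8% of all genes tested. Other probe sets were higher in 4 of the genes, by 0.21 (Srsf2), 0.26 (Srsf3), 0.17 (Srsf6) and 0.020 (Srsf11). The sign of Srsf9 and Srsf11 also turned when 1 array was left out. No SR gene reached an unadjusted limma p under 0.05 with its brightest probe set.

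Srsf10, a splicing repressor when dephosphorylated, was at 9.96 and 10.04 on the control arrays and at 9.75 and 9.33 on the Myc-depleted arrays. Its difference of -0.46 (SE 0.18, adjusted p = 0.533 in limma) left 72.7% of the control level, the lowest share of any member. All 4 of its probe sets were lower, from -0.73 to -0.36. In the brightest Myc-depleted 2 was the lower of the depleted arrays, whereas in the probe set at -0.73 it was Myc-depleted 1, at 8.88 against 9.39. Without Myc-depleted 2 the difference was -0.25.

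Srsf1, long known as SF2/ASF and able to transform cells when in excess, was at 12.53 and 12.43 on the control arrays and at 12.33 and 12.27 on the Myc-depleted arrays (-0.18, SE 0.12). All 6 of its tested probe sets were lower, from -0.78 to -0.17. The probe set with the smallest p was at 11.85 and 11.80 on the control arrays and at 11.38 and 11.45 on the Myc-depleted arrays (-0.41, SE 0.11, adjusted p = 0.421 in limma). Srsf3, the smallest SR protein, was at 11.79 and 11.82 on the control arrays and at 11.61 and 11.63 on the Myc-depleted arrays (-0.18, SE 0.11). Replicates of Srsf3 differed by far less than the groups did, but its 6 probe sets ranged from -0.56 to 0.26. Srsf2, known as SC35 and found in nuclear speckles, was at 11.80 and 11.68 on the control arrays and at 11.37 and 11.64 on the Myc-depleted arrays (-0.24, SE 0.15). The remaining SR genes, Srsf4, Srsf5, Srsf6, Srsf9 and Srsf11, differed by -0.19, -0.22, -0.18, -0.052 and -0.10.

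**Figure D2:**
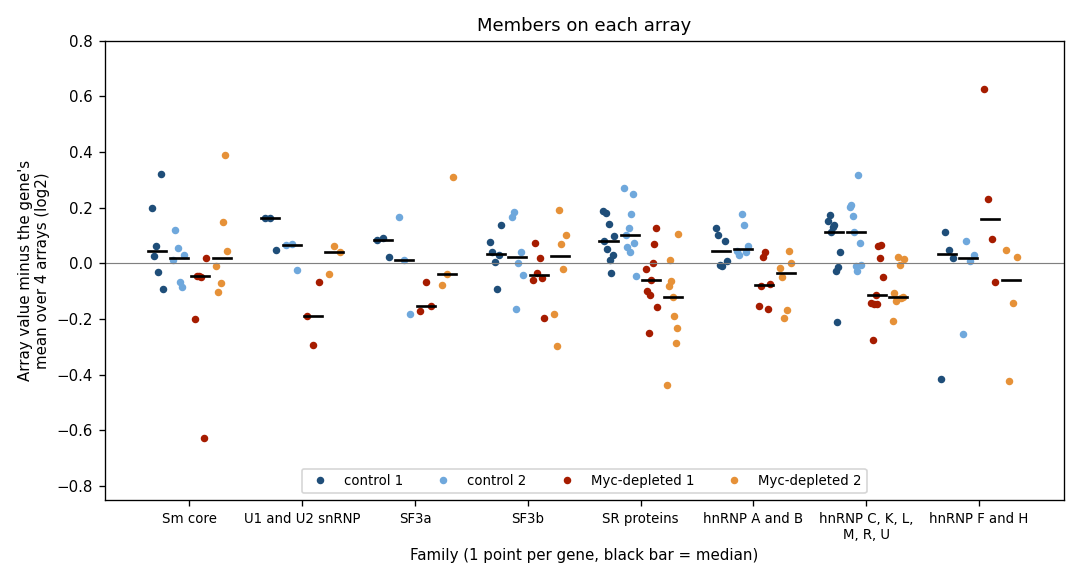
Level of each gene on each array relative to that gene's mean over the 4 arrays (log2, vertical axis), by family; each point is 1 gene and black bars are medians. The medians of both control arrays lie above 0 and those of both Myc-depleted arrays below it in some families. These are the SF3a complex, the SR family, the hnRNP A and B group and the hnRNP C, K, L, M, R and U group. The hnRNP F and H group shows no such order.

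The hnRNPs of the A and B group, which includes the textbook antagonists of SR proteins, were lower in 6 of 6 genes, with a median of -0.13 and a narrow range from -0.17 to -0.071. Hnrnpa1, a repressor of exon inclusion, was at 9.96 and 9.89 on the control arrays and at 9.78 and 9.81 on the Myc-depleted arrays (-0.13, SE 0.11). Its groups did not overlap. Of its other probe sets, 1 differed by -0.096 with overlapping groups and 1 by -0.65, mostly from Myc-depleted 2 (5.91, against 6.79 on Myc-depleted 1). Hnrnpa2b1 was at 12.46 and 12.38 on the control arrays and at 12.18 and 12.32 on the Myc-depleted arrays (-0.17, SE 0.12). Its 4 probe sets were all lower in the mean, from -0.27 to -0.029. In the probe set at -0.029, Myc-depleted 1 (12.51) was above both control arrays (12.36 and 12.27). The same was so in the probe set at -0.25 (11.19, against 10.88 and 10.84). Hnrnpd, also called AUF1 and known for its part in the decay of AU-rich messengers, differed by -0.17 (SE 0.15), whereas its dimmer probe set differed by 0.53. Hnrnpa0, Hnrnpab and Hnrnpdl differed by -0.071, -0.12 and -0.13.

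In the hnRNP C, K, L, M, R and U group, 8 of 9 genes were lower, with a median of -0.12. Hnrnpu, a chromatin-bound protein also called scaffold attachment factor A, was at 12.22 and 12.27 on the control arrays and at 11.93 and 11.86 on the Myc-depleted arrays. Its difference of -0.35 (SE 0.11, adjusted p = 0.457 in limma, unadjusted p under 0.05) left 78.3% of the control level. The groups lay well apart in the brightest probe set, and all 5 tested probe sets were lower in the mean, from -0.51 to -0.069. In the probe set at -0.069 the groups overlapped. They also overlapped in the probe set at -0.44, where Myc-depleted 1 (8.34) was above both control arrays (7.87 and 8.06). Hnrnpul2, a relative of Hnrnpu, was at 10.34 and 10.38 on the control arrays and at 9.89 and 10.06 on the Myc-depleted arrays (-0.38, SE 0.12, adjusted p = 0.461 in limma, unadjusted p under 0.05). Its second probe set differed by 0.035, so the lower level was seen by 1 of its 2 probe sets.

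Hnrnpll, a regulator of Ptprc splicing in lymphocytes, was at 11.51 and 11.57 on the control arrays and at 11.25 and 11.26 on the Myc-depleted arrays (-0.28, SE 0.11, adjusted p = 0.525 in limma). Its second probe set differed by 0.013. Hnrnpm was at 10.77 and 10.75 on the control arrays and at 10.52 and 10.51 on the Myc-depleted arrays (-0.24, SE 0.11, adjusted p = 0.567 in limma). Hnrnpll and Hnrnpm thus had tight replicates and groups that did not overlap. Hnrnpc, Hnrnpl, Hnrnpr and Hnrnpul1 differed by -0.12, -0.11, -0.058 and -0.035, and Hnrnpk, which binds C-rich sequences, by 0.058. With any 1 array left out the median of the group lay between -0.23 and -0.18, lower than with all 4 arrays.

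The hnRNP F and H group, whose proteins bind runs of G and control exon choice next to them, held the largest difference of the members, and it was positive. Hnrnph3 was at 7.86 and 8.03 on the control arrays and at 8.91 and 8.33 on the Myc-depleted arrays, a difference of 0.67 (SE 0.24, adjusted p = 0.492 in limma, unadjusted p under 0.05). This was 159% of the control level, the largest difference of any member, seen by the only tested probe set of the gene. Both Myc-depleted arrays were above both control arrays, and the difference was 0.38 without Myc-depleted 1 and 0.96 without Myc-depleted 2. Its relative Hnrnph1 was at 12.07 and 12.04 on the control arrays and at 12.19 and 11.53 on the Myc-depleted arrays (-0.19, SE 0.25), with the Myc-depleted arrays on opposite sides of the controls. Hnrnph2 and Hnrnpf differed by -0.058 and -0.046, although 2 further probe sets of Hnrnpf differed by -0.49 and -0.56. The median of this group was -0.052, and it was 0.095 without Myc-depleted 2.

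Most members are read by several probe sets, which bind different stretches of the transcripts, and these often disagreed. Of the 128 probe sets tested, 98 (76.6%) were lower and 30 higher, with a median of -0.14 against -0.0024 over all probe sets tested. An unadjusted limma p under 0.05 was reached by 8 lower probe sets, where the share over all probe sets was 4.46%, and by 2 higher ones, where it was 5.63%. After adjustment 0 passed (smallest adjusted p = 0.350 in limma), and 0 differed over 2-fold. Of 33 genes with several tested probe sets, 14 had all of them lower, 1 (Sf3a2) had all higher, and 18 had probe sets of both signs. In 11 genes the probe sets differed among themselves by more than 0.5.

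The widest disagreement was that of Snrpd3, from -0.24 to 0.62. The probe set at 0.62 was at 6.15 and 6.14 on the control arrays and at 6.69 and 6.84 on the Myc-depleted arrays (SE 0.12, adjusted p = 0.350 in limma), with tight replicates. Thus the probe sets of Snrpd3 gave opposite readings of the gene. Srsf2 ranged from -0.62 to 0.21, Srsf3 from -0.56 to 0.26, Hnrnpd from -0.17 to 0.53 and Hnrnpdl from -0.30 to 0.40. In these 5 genes a statement on the gene holds only for the probe set named, because whether different transcripts or different probe quality lie behind the spread was not tested. With the dimmest tested probe set of each gene in place of the brightest, 31 members were lower and 15 higher, with a median of -0.085.

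**Figure D3:**
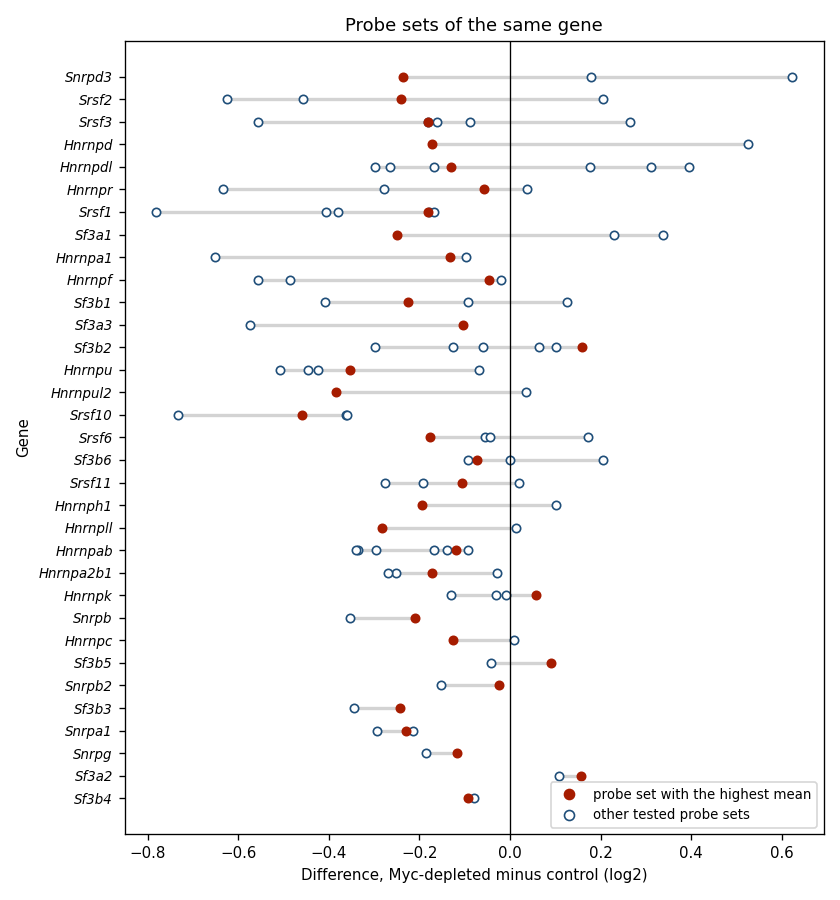
Difference between Myc-depleted and control arrays (log2, horizontal axis) for each tested probe set of the 33 genes with several, ordered by the range within a gene; filled points are the probe sets with the highest mean, open points the others, and grey lines join probe sets of the same gene. Snrpd3 at the top runs from -0.24 to 0.62, while the 6 probe sets of Srsf1 and the 4 of Srsf10 all lie left of 0.

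The arrays also differed in the poly-A spike-ins, bacterial transcripts added to the RNA whose 3' and 5' ends are read by separate probe sets. The mean 3' minus 5' value of 8 pairs was 1.89 on control 1, 3.12 on control 2, 3.64 on Myc-depleted 1 and 1.78 on Myc-depleted 2. So control 2 and Myc-depleted 1 stood apart from the other arrays, a split that crosses the groups. Comparing within like arrays, 35 members were lower on Myc-depleted 2 than on control 1 and 37 were lower on Myc-depleted 1 than on control 2, and 32 were lower in both. The median of the members was -0.13 in the low pair and -0.14 in the high pair. These pairs are among the single pairings of arrays given above, so they are no separate check. Within the high pair the spike-in values still differed, 3.12 against 3.64. The part of the spike-in split in the group differences was not tested.

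Some member probe sets differed more between arrays of high and low spike-in value than between the groups. A probe set of Srsf1 was at 11.01 and 10.59 on the low arrays, control 1 and Myc-depleted 2, and at 9.46 and 8.32 on the high arrays, control 2 and Myc-depleted 1. A probe set of Hnrnpr was at 9.37 and 9.02 on the low arrays and at 8.68 and 7.76 on the high arrays. In contrast, a probe set of Hnrnpu was at 7.87 and 6.70 on the low arrays and at 8.06 and 8.34 on the high arrays. The Srsf1 and Hnrnpr probe sets were thus lowest where the spike-in value was highest, and that of Hnrnpu was highest there. Within the low and the high pair the Srsf1 probe set was also lower on the depleted array, by differences of -0.42 and -1.14, and so was that of Hnrnpr, by -0.34 and -0.92. A difference over 0.5 between the high and the low arrays was seen in 10 of the 128 member probe sets (7.81%), against 14.7% of all probe sets. Between the groups it was seen in 12 (9.38%), against 9.68%. The spike-ins are added transcripts and do not read the state of the cells' own RNA. The part of labelling or of RNA quality in these values was not tested.

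**Figure D4:**
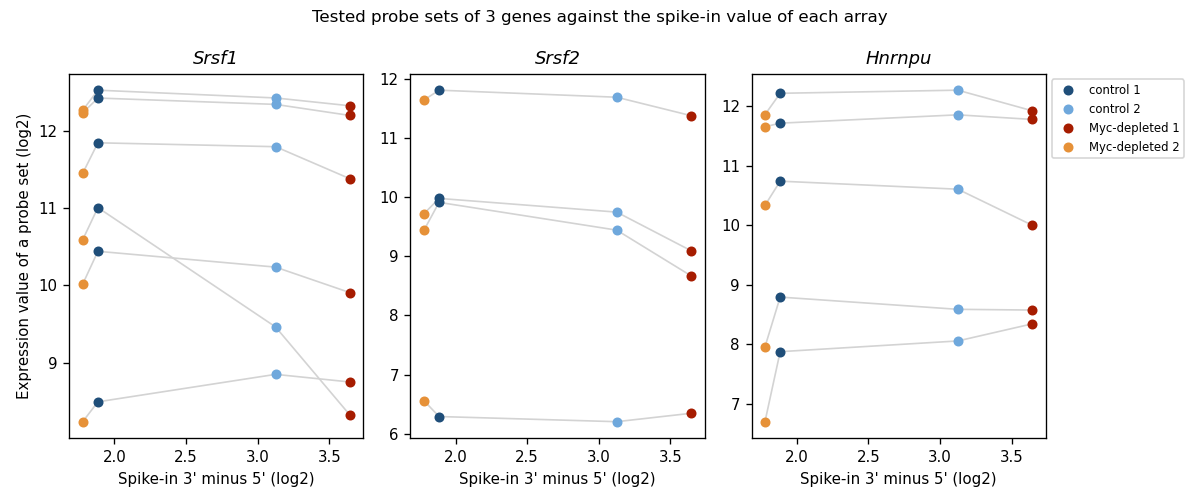
Level of every tested probe set of Srsf1, Srsf2 and Hnrnpu (log2, vertical axis) against the 3' minus 5' spike-in value of the array (log2, horizontal axis); each grey line is 1 probe set over the 4 arrays. The brightest probe set of each gene varies by less than 0.5 between arrays, while the Srsf1 probe set that starts at 11.01 on control 1 drops to 8.32 on Myc-depleted 1.

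Outside the named families, 132 further genes of splicing and snRNP assembly, taken from 6 lists by textbook composition, showed differences of about the same size. Of these, 100 were lower and 32 higher, with a median of -0.13. The groups did not overlap in 53 lower genes (40.2%, against 20.8% of all genes tested) and 7 higher genes (5.3%, against 26.6%). An unadjusted limma p under 0.05 was reached by 5 lower genes (3.79%, against 5.23%) and 1 higher gene (0.758%, against 6.96%), both shares under the background. With the brightest probe set of each gene, 0 passed after adjustment or differed over 2-fold.

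Gemin5, the SMN complex subunit that recognises small nuclear RNAs before the Sm ring is loaded, had the smallest p of these genes. It was at 8.12 and 8.15 on the control arrays and at 7.48 and 7.51 on the Myc-depleted arrays. The difference of -0.64 (SE 0.11, adjusted p = 0.337 in limma) left 64.0% of the control level, and all its tested probe sets were lower, from -0.66 to -0.31. The list of SMN complex, methylosome and snRNP import had 12 of 16 genes lower, with a median of -0.18. In it, Wdr77 and Prmt5, which together methylate Sm proteins, differed by -0.35 (SE 0.16) and -0.37 (SE 0.30), and the import receptor Kpnb1 by -0.24. The tested probe sets of Kpnb1 ranged from -1.41 to -0.0955. Smn1 itself was at 8.80 and 8.29 on the control arrays and at 7.64 and 8.78 on the Myc-depleted arrays (-0.33, SE 0.45), and without Myc-depleted 1 its difference was 0.24. Prmt5 was at 9.35 and 9.01 on the control arrays and at 8.45 and 9.16 on the Myc-depleted arrays, so its lower mean came from Myc-depleted 1 and was -0.018 without it.

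The list of other snRNP proteins had 23 of 29 genes lower, with a median of -0.18. Among them Lsm8, which with other LSM proteins forms the ring of U6, was at 11.09 and 10.98 on the control arrays and at 10.42 and 10.62 on the Myc-depleted arrays (-0.51, SE 0.14, adjusted p = 0.406 in limma). Lsm3 and Lsm6, of the same ring, differed by -0.41 and -0.34, and Lsm2 by -0.74 with overlapping groups (SE 0.43). Lsm7, also of that ring, differed by 0.11 (SE 0.12), with both Myc-depleted arrays above both control arrays. Prpf8, the protein at the catalytic centre, differed by -0.15.

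The Prp19 complex and catalytic step factors were nearer to balance, with 15 of 25 lower and a median of -0.053. Cdc40, a factor of the second splicing step, was at 9.46 and 9.45 on the control arrays and at 9.83 and 9.81 on the Myc-depleted arrays (0.37, SE 0.11, adjusted p = 0.440 in limma). Isy1 and Mtrex differed by -0.41 and -0.40. The second probe set of Isy1 differed by 0.30.

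Splice site recognition and exon junction genes were lower in 16 of 19, with a median of -0.080. The smallest p values belonged to the cap-binding protein Ncbp1 (-0.29), to Acin1 (-0.31) and to the exon junction protein Rbm8a (-0.22). Kinases of SR proteins and SR-related proteins were lower in 11 of 14, with a median of -0.12. That median was 0.19 for Myc-depleted 1 minus control 1 and -0.33 for Myc-depleted 2 minus control 2, so it turned with the array. The import receptor Tnpo1, which carries hnRNP A1 into the nucleus, differed by -0.37, the SR-like protein Tra2b by -0.17 and the kinase Srpk3 by -0.20. Srpk3 had a low mean, 5.47, near the filter.

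Other splicing regulators were lower in 23 of 29, with a median of -0.19. Syncrip, an hnRNP-like protein, was at 11.09 and 10.90 on the control arrays and at 10.38 and 10.67 on the Myc-depleted arrays (-0.47, SE 0.16, adjusted p = 0.486 in limma). Rbmx and Tardbp, the gene of TDP-43, differed by -0.38 and -0.33, but the highest of their probe sets differed by 0.047 and 0.033. Ptbp1, the polypyrimidine tract binding protein, differed by -0.15 (SE 0.13), and 1 of its probe sets by 0.20.

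**Figure D5:**
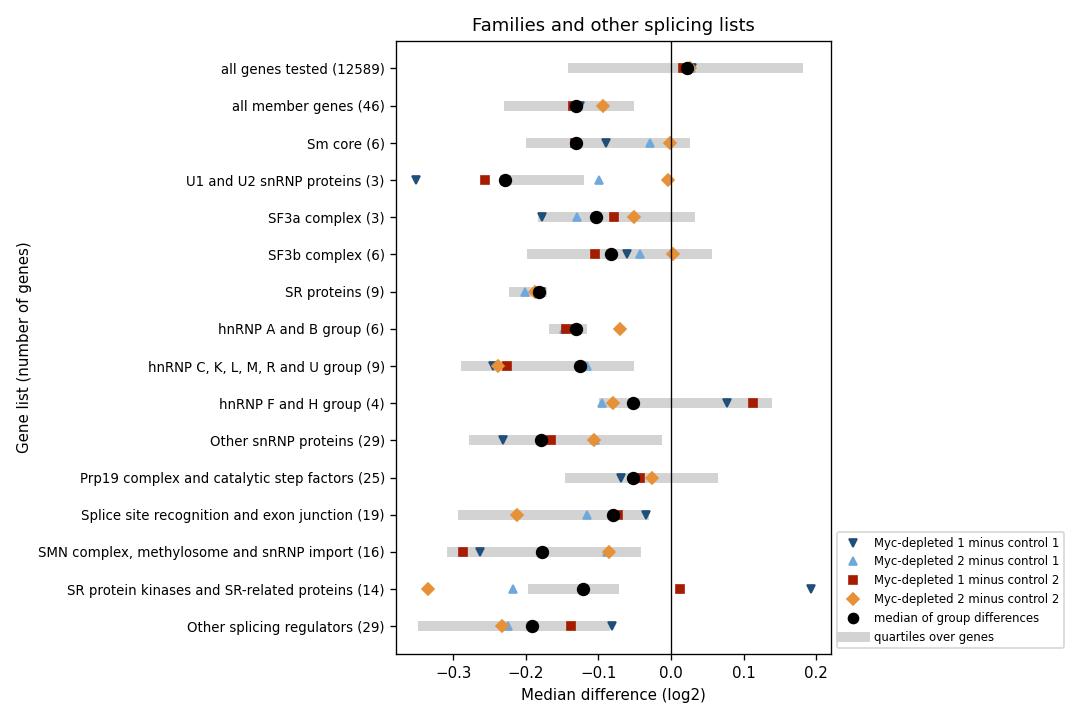
Median difference between Myc-depleted and control arrays (log2, horizontal axis) for all genes tested, the members, their 8 families and 6 other lists; black points are medians of the group differences, grey bars the quartiles over genes, and coloured symbols the medians of the 4 single comparisons. The 4 symbols of the SR proteins lie together between -0.20 and -0.18, whereas those of the SR kinases and related proteins run from -0.33 to 0.19.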

How the data were processed

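Biotin-labelled total RNA of 2 control and 2 Myc-depleted BASC samples was read on 1-colour arrays. The deposited log2 values were made by the authors with Partek 6.4. For the normalization, the paper gives Robust Multichip Average and the submitters' processing notes give GCRMA, and which of them applies was not settled; this matters most for dim probe sets. The array medians lay between 5.48 and 5.49. Of 45101 probe sets, 64 controls were left out, then those with a mean under the 40th percentile (log2 5.08), which left 27022. Gene symbols came from the platform annotation, in which 34945 probe sets had 1 symbol, 932 several and 9160 none.

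Groups were compared by lmFit and eBayes of limma 3.58.1, run in R 4.3.3 with the group as the only factor, and Benjamini-Hochberg adjustment over all 27022 probe sets. The fit had 2 residual and 2.02 prior degrees of freedom, and precision is limited by the few arrays: the smallest two-sided p of an exact permutation test of 2 against 2 arrays is 0.333. A gene was represented by its own tested probe set with the highest mean. The fit was tested on simulated data.

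The members and lists were chosen with earlier results of these data known, so lists are given by counts and medians, with no test. Named genes were Myc, the 3 members with the smallest p and the 1 with the largest difference in each family, the 5 members whose probe sets disagreed most, Hnrnpa1, Hnrnpa2b1, Srsf1, Ptbp1 and Prmt5, and the 3 smallest p in each other list. Lsm2, Lsm7, Smn1, Prpf8, Pdgfra, Dcn, Thy1, Epcam and the remaining members were named after their values were seen. Alternatives covered the filter, scaling, a floor, the variance model, the ANOVA named in the methods, the choice of probe set, a block for the replicate number, leaving out each array, and pairs of arrays with like spike-in values.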

Additional observations from a re-analysis of the deposited data

How the results depend on the processing

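The count of members lower than control stayed between 31 and 40, and the members' median below 0, under every alternative run; the median was -0.085 with the dimmest probe set of each gene. No filter, a stricter filter, a floor, median centring and quantile normalization turned no family median and no gene named in the text. With 2 arrays per group, differences of this size were rarely separable from the spread between arrays.

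The count of members higher, 7, was 15 with the dimmest probe sets, 11 in the low spike-in pair and 8 to 11 with an array left out. The count at an unadjusted limma p under 0.05, 3, was 5 with a variance trend (10.9%, against 12.6% of all genes), 6 with the methods' ANOVA (13%, against 11.4%) and 0 to 3 with an array left out (against 3.35% to 13.4%). The replicate numbers did not pair the arrays (correlation of same-numbered deviations -0.77); with the replicate number as a block the count was 0, against 4.77% of all genes. Crossing the numbers, chosen after seeing the data, gave 4 members at that level (8.7%, against 21.8%) and 0 after adjustment, with 12 of all genes called.

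With all probe sets of a gene averaged, the medians were 0.11 (SF3a) and -0.041 (Sm). With the dimmest probe sets they were 0.11 (SF3a), 0.031 (SF3b), -0.041 (Sm), -0.035 (hnRNP C, K, L, M, R and U) and 0.022 (hnRNP F and H). In the low spike-in pair they were -0.20 (SR) and -0.029 (Sm), and in the high pair -0.23 (hnRNP C, K, L, M, R and U) and 0.11 (hnRNP F and H). With an array left out they ran from -0.11 to -0.00055 (SF3b), from -0.21 to -0.14 (SR), from -0.11 to -0.018 (Sm), from -0.30 to -0.051 (U1 and U2), from -0.23 to -0.18 (hnRNP C, K, L, M, R and U) and from -0.087 to 0.095 (hnRNP F and H).

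Single genes turned sign as follows. With all probe sets averaged, Sf3a1 was 0.11, Sf3b2 -0.026, Snrpd3 0.19, Hnrnpd 0.18, Hnrnpdl 0.0033, Hnrnpk -0.028 and Sf3b6 0.010. With the dimmest probe set, Sf3a1 was 0.23, Sf3b1 0.13, Srsf2 0.21, Snrpd3 0.18, Hnrnpd 0.53, Hnrnpul2 0.035, Hnrnpll 0.013, Hnrnph1 0.10, Ptbp1 0.20, Lsm6 0.032, Isy1 0.30, Acin1 0.018, Rbm8a 0.069, Wdr77 0.061, Srpk3 0.096, Hnrnpc 0.0091, Hnrnpk -0.0094, Sf3b5 -0.041 and Sf3b6 0.21. In the low spike-in pair, Snrpd3 was 0.070, Hnrnpl 0.084, Srsf9 0.0064 and Hnrnpf 0.0038, and in the high pair Hnrnph1 was 0.15, Hnrnph2 0.078, Srsf11 0.054 and Snrpf -0.0093. With an array left out, Sf3a2 ran from -0.075 to 0.39, Snrpd3 from -0.74 to 0.27, Snrpb2 from -0.078 to 0.031, Hnrnph1 from -0.52 to 0.13, Hnrnph2 from -0.17 to 0.058, Srsf9 from -0.18 to 0.079, Srsf11 from -0.29 to 0.076, Hnrnpr from -0.15 to 0.035, Hnrnpl from -0.37 to 0.16, Sf3b4 from -0.24 to 0.055 and Smn1 from -0.90 to 0.24. The cause of these turns was not tested.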
